A study of Saccharomyces cerevisiae with 72 samples.

Results

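EFT1 and TIF1 are budding yeast genes for abundant components of the translation machinery. They were chosen by name, because their array probes were among those with the strongest fall in ethanol. Each gene has 1 probe, so the account covers 2 of 1536 probes and 2 of 982 named genes, over all 11 comparisons of the series. The ethanol values chose the members and are given as a description with no test, while the rule of choice used no value of the other 10 comparisons. Earlier results of these data were known when the choice was made.

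EFT1 encodes elongation factor 2, the GTPase that moves the ribosome along the mRNA by one codon after each peptide bond. The gene EFT2 encodes the same protein. TIF1 encodes eIF4A, the founding DEAD-box RNA helicase, which opens structure in the mRNA leader so that the small ribosomal subunit can load and scan. TIF2 encodes the same protein as TIF1. Both factors are made in large amounts in growing yeast, neither gene has an intron, and translation initiation in yeast is known to be sensitive to stress. Near-identical gene copies can share the signal of a long or conserved probe. The probe of TIF1 therefore may also read TIF2 RNA, and the probe of EFT1 may read EFT2 RNA, for which no probe was named. Probe sequences were not analysed here.

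The study followed the response of splicing to environmental stress on 72 arrays of 2 colours, hybridised as 36 pairs in which the same RNA extracts were labelled with the dyes exchanged. Wild-type cells in 10% ethanol were compared with untreated wild type at 5, 10, 15, 20, 25 and 30 min. Wild-type cells in 50 mM 3-amino-1,2,4-triazole (3-AT) were compared with untreated wild type at 2, 4, 6, 10, 15 and 20 min. 3-AT blocks histidine synthesis and so starves cells for an amino acid. The gcn2 deletion, without the kinase that phosphorylates initiation factor eIF2 when amino acids run short, was compared at the same times in 50 mM 3-AT with its untreated match. The last 3-AT course set the gcn2 deletion against wild type with both in 50 mM 3-AT. The prp8-1 strain, a temperature-sensitive mutant of the core splicing factor Prp8, was compared with wild type at 37 C at 2 to 20 min. Its label gives YPD medium and that of its wild type names none. The xrn1, upf1, ski2, rtt103, rrp6 and rai1 deletions, which remove factors of RNA decay or of transcription termination, were compared with wild type in the medium labelled MIN on 2 arrays each. Each course held 12 arrays, or 6 pairs.

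Ratios are the deposited log values, taken as log2, of the treated or mutant RNA over its control, averaged over the 4 or 6 spots of a probe and then over the 2 arrays of a pair. Another log base would change every fold and percentage given below. Array medians lay between -0.036 and 0.035, so a ratio states a level relative to the other probes on the array and not an amount per cell. RNA came from whole cultures, so less RNA in every cell and a loss in some of the cells cannot be told apart. The deleted genes were far below 0 in their own strains, from -4.35 for GCN2 to -2.37 for RAI1, which sets the direction of the ratios there, while RTT103 was not analysed here and has no named probe. The direction of the ethanol ratios was assumed to be the same and is not settled, since no deleted gene checks it. Every rank, fold and percentage of the ethanol course below rests on it. If it were turned, EFT1 would be the highest of all probes at 3.37, or 10.3-fold higher, and TIF1 would be 4.86-fold higher at 2.28. Correlations between the 2 arrays of a pair over all probes lay between 0.15 and 0.92, and the lowest was that of wild type at 2 min of 3-AT. No label says that the times of a course were separate cultures, so SDs and p-values measure the spread between time points, which may be technical.

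In ethanol the EFT1 ratio was the lowest of all 1536 probes, and TIF1 held rank 6. At 5, 10, 15, 20, 25 and 30 min the EFT1 log2 ratio was -3.93, -3.26, -4.02, -2.24, -3.52 and -3.23. Every time point was far below 0, and 20 min stood above the other 5. The spots at 20 min were scattered, with SDs of 0.74 with the ethanol RNA in Cy5 and 0.57 in Cy3. At the other 5 times the spot SDs were 0.16 to 0.24 in Cy5 and 0.12 to 0.63 in Cy3. The mean was -3.37 ± 0.64 (SD, n = 6 time points), which corresponds to 9.69% of the untreated level and a 10.3-fold lower ratio. Across single time points the EFT1 level lay between 6.17% and 21.1% of untreated.

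TIF1 gave log2 ratios of -2.16, -1.70, -2.61, -2.35, -2.48 and -2.39 at the same 6 times. The fall was already present at 5 min, the first time sampled, and 10 min held the highest value. At 10 min the spot SD was 0.084 with the ethanol RNA in Cy5 and 0.79 in Cy3. Its mean of -2.28 ± 0.32 (SD, n = 6 time points) corresponds to 20.6% of untreated, or 4.86-fold lower. Single time points lay between 16.3% and 30.8% of untreated.

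TIF2, the gene copy of TIF1, held rank 16 with ratios of -2.09, -1.78, -2.30, -1.70, -1.98 and -1.82. Its mean was -1.95 ± 0.22 (SD, n = 6 time points), or 25.9% of untreated and 3.85-fold lower. TIF1 minus TIF2 was -0.065 and 0.076 at 5 and 10 min, then -0.31, -0.65, -0.49 and -0.57 from 15 to 30 min. The copies lay close together at 5 min, and TIF1 was the lower of the pair at the 4 times from 15 to 30 min, in both dyes. At 10 min the dyes disagreed, so the small difference there is a mean of opposite readings. With the ethanol RNA in Cy5, TIF1 stood at -1.61 and TIF2 at -1.14. With it in Cy3 they stood at -1.79 and -2.41. The mean difference, TIF1 minus TIF2, was -0.34 ± 0.29 (SD, n = 6 time points).

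EFT1 lay below TIF1 at 5 of 6 times in ethanol. EFT1 minus TIF1 was -1.77, -1.56, -1.41, 0.11, -1.04 and -0.84 in order of time, with a mean of -1.08 ± 0.68 (SD, n = 6 time points). The exception was 20 min, when the ranges of both genes met. These differences are of the measure that chose the genes and carry no test.

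The size of the EFT1 fall differed between the dyes. With the ethanol RNA in Cy5 the 6 EFT1 ratios were -3.83, -2.31, -3.64, -1.93, -2.84 and -2.82, with a mean of -2.89. With the ethanol RNA in Cy3 they were -4.03, -4.22, -4.40, -2.55, -4.20 and -3.65, with a mean of -3.84. The Cy3 array was the lower one of the pair at all 6 times, by 0.20 to 1.91. For TIF1 the means were -2.09 in Cy5 and -2.47 in Cy3, and for TIF2 they were -1.72 and -2.17. All 12 arrays of each of the 3 genes were below 0, so the direction held in both dyes and the depth of the fall did not.

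**Figure D1:**
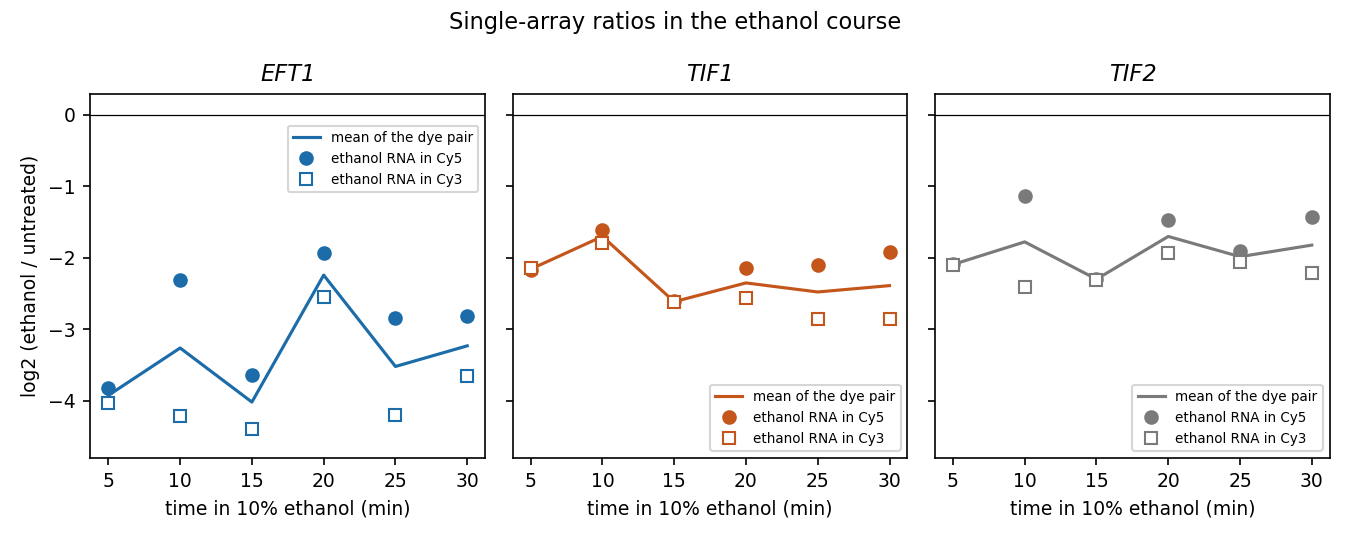
Log2 ratio of ethanol-treated over untreated wild type on each array for EFT1, TIF1 and TIF2, against minutes in 10% ethanol. Filled circles have the ethanol RNA in Cy5, open squares have it in Cy3, and lines join the means of the dye pairs. All points lie below 0, the EFT1 line lies deepest except at 20 min, and its dye pairs are up to 1.91 apart.

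Just behind EFT1 in the ethanol order stood the Hsp70 chaperone genes SSA1 (-3.15) and SSA2 (-2.59) and a probe of the decay factor gene NMD2 (-2.52). SSA2, NMD2 and a probe of TEF4, for the gamma subunit of elongation factor 1, at -2.40 lay just below TIF1. Just above it lay a second TEF4 probe at -2.21, a probe of the mediator gene SRB2 at -2.19 and the ribosome-bound chaperone gene SSB1 at -2.10. Around TIF2 lay a probe of the actin gene ACT1 (-2.03), the splicing factor gene DIB1 (-1.98) and the nucleolar methyltransferase gene NOP1 (-1.97) on one side. The glycolytic genes PGK1 (-1.92) and TDH1 (-1.89) and the helicase gene DED1 (-1.90) lay on the other. Genes of the heat shock and general stress list were lower in ethanol in 7 of 8 cases, with a median of -1.11 (limma with Benjamini-Hochberg adjustment). HSP104 averaged -1.56, SIS1 -0.94 and SSA4 -0.45, and only SSA3 was higher, at 0.17. Over all probes 38.7% were lower and 42.9% higher, with a median of 0.012. With the ethanol direction turned, 7 of these 8 genes would be higher, with a median of 1.11. Whether the falls of EFT1 and TIF1 share a source with these was not tested.

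Most other translation factor genes with 1 probe were also lower in ethanol. Of 46 listed translation factor genes beside EFT1 and TIF1, 12 had a probe, and 10 of these had 1 probe each. By limma with Benjamini-Hochberg adjustment, 8 of the 10 were lower, 1 was higher and 1 did not pass, while 38.7% of all probes were lower and 42.9% higher. Their median log2 ratio was -0.63, against 0.012 over all probes. The lowest were TIF2, DED1 at -1.90 ± 0.27 and the poly(A)-binding protein gene PAB1 at -1.79 ± 0.29 (SD, n = 6 time points). DED1 encodes another helicase of scanning. The translation termination factor gene SUP45 averaged -0.93 ± 0.09, and TIF5, for the initiation factor eIF5, averaged -0.65 ± 0.05. CAF20, which encodes a repressor that binds the cap-binding protein, was the gene that rose, with a mean of 0.94 ± 0.18. STM1, for a ribosome-binding protein, averaged -0.40, and DBP1, a close relative of DED1, did not pass and stood at -0.14.

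TEF4 and EFB1, which encode subunits of elongation factor 1, have introns and 3 probes each. No source used here gives the kind of a single probe, so they are given probe by probe. The TEF4 probes averaged -2.40, -2.21 and 2.06 in ethanol. Those of EFB1 averaged -0.73, -0.29 and 0.21. Probes of one gene thus lay on both sides of 0, and each of these 6 probes passed the test (limma, adjusted p of 0.00411 or less).

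Among the 23 other DEAD-box helicase genes with 1 probe, 17 were lower in ethanol by the same test, 1 was higher and 5 did not pass, where 38.7% of all probes were lower and 42.9% higher. Their median was -0.52, and TIF1, which was chosen for its fall in ethanol, lay below all 23. The lowest after TIF2 and DED1 was SUB2, the helicase of spliceosome assembly and mRNA export, at -1.82 ± 0.19 (SD, n = 6 time points). At the other end stood FAL1, an eIF4A-like helicase of ribosomal RNA processing, which rose with a mean of 0.45 ± 0.14. ROK1 at 0.048 and DBP8 at -0.087, also of ribosome assembly, did not pass. DBP2 has 3 probes, which averaged -1.36, 0.48 and -1.54. SNU114, a spliceosomal GTPase related to elongation factor 2, averaged 0.19 ± 0.07 and passed as higher.

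**Figure D2:**
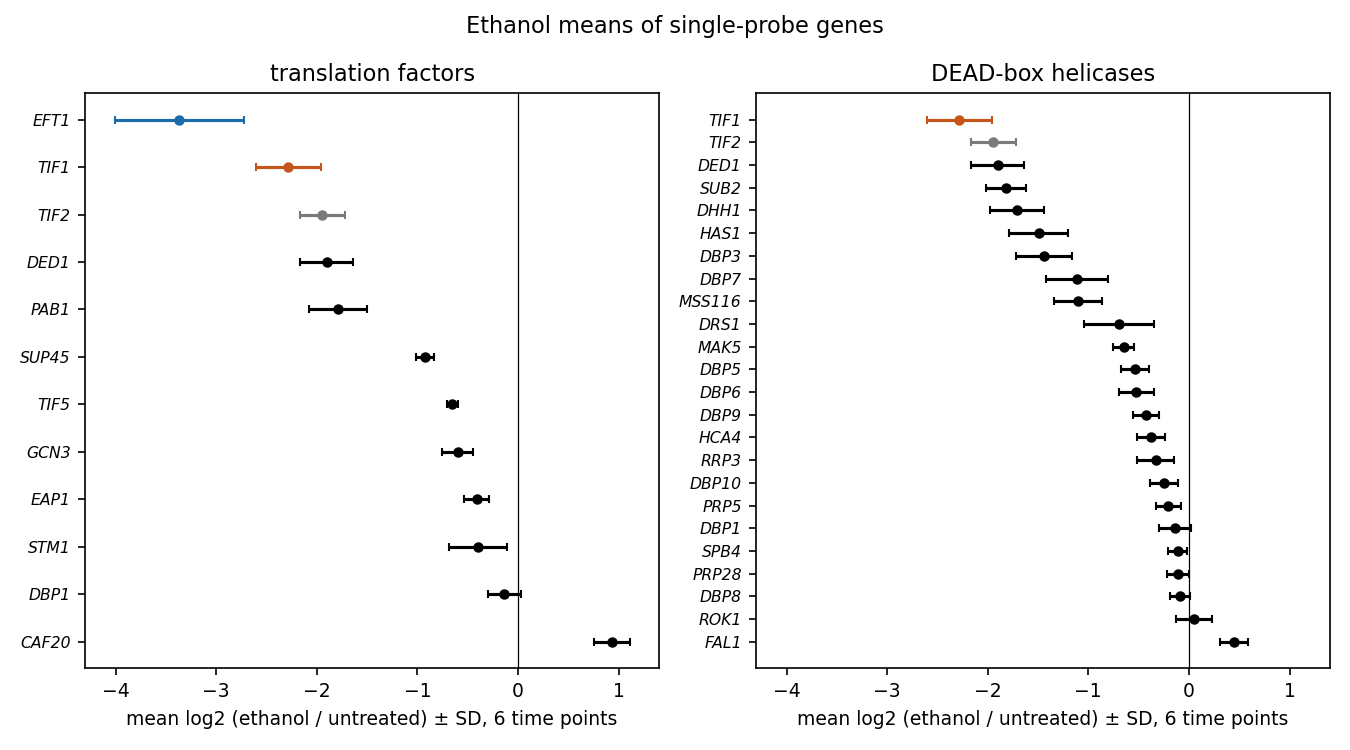
Mean log2 ratio of ethanol-treated over untreated wild type, with SD over 6 time points, for translation factor genes (left) and DEAD-box helicase genes (right) with 1 probe. EFT1 at -3.37 and TIF1 at -2.28, chosen for their fall in ethanol, lie to the left of every other gene shown. CAF20 and FAL1 lie to the right of 0.

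In the courses with 3-AT the pair means of EFT1 and TIF1 stayed between -0.28 and 0.23. In wild type in 3-AT the EFT1 ratios at 2, 4, 6, 10, 15 and 20 min were -0.074, -0.11, -0.17, -0.072, -0.19 and -0.0094. All 6 were below 0, with a mean of -0.10 ± 0.07 (SD, n = 6 time points), or 93.1% of untreated. EFT1 fell in wild type by this small amount (limma, SE 0.033, adjusted p = 0.0286), as 31.5% of all probes did. The call was lost without the term for time (adjusted p = 0.0593) and on the arrays of either dye alone, with means of -0.058 in Cy5 (adjusted p = 0.409) and -0.15 in Cy3 (adjusted p = 0.121). It was also lost without 4, 6 or 15 min, with adjusted p between 0.0692 and 0.0898.

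TIF1 in wild type in 3-AT gave -0.023, -0.074, -0.026, 0.054, 0.055 and 0.12. The first 3 values were below 0 and the last 3 above it, and the mean of 0.017 ± 0.07 (SD, n = 6 time points) did not pass (limma, adjusted p = 0.600). The trend in time did not pass either, at 0.093 per 10 min (limma, adjusted p = 0.137), where 31.4% of all probes had a trend in either direction. TIF2 averaged 0.040 (limma, adjusted p = 0.391).

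The TIF1 arrays of this course read in opposite directions in the dyes. With the 3-AT RNA in Cy5 the TIF1 ratios were 0.21, 0.20, 0.16, 0.26, 0.23 and 0.24, all above 0. With it in Cy3 they were -0.25, -0.35, -0.21, -0.16, -0.12 and -0.0031, all below 0. Each dye alone passed the test, with means of 0.22 (limma, adjusted p = 0.000978) and -0.18 (limma, adjusted p = 0.00312), in opposite directions. In the 3 courses on this kind of slide the Cy5 mean of TIF1 exceeded the Cy3 mean by 0.40, 0.47 and 0.45, more than any of its course means there. A dye effect cancels in the mean of a pair only where it is equal and opposite on both arrays, which was not tested. For EFT1 the same gap between the dye means was 0.09, 0.24 and 0.27. At single times in wild type in 3-AT, Cy5 minus Cy3 of EFT1 ran from -0.52 at 4 min to 0.43 at 6 min.

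In the gcn2 deletion in 3-AT against its untreated match, EFT1 gave -0.28, 0.14, -0.060, -0.085, 0.010 and 0.067. Its mean of -0.035 ± 0.14 (SD, n = 6 time points) did not pass (limma, adjusted p = 0.587), where 56.3% of all probes passed in either direction. In Cy3 alone it averaged -0.16 and passed (limma, adjusted p = 0.0361), and in Cy5 alone it averaged 0.086 and did not (limma, adjusted p = 0.235). TIF1 gave -0.27, -0.079, -0.19, -0.22, 0.10 and 0.16. The first 4 values were below 0 and the last 2 above, and the mean of -0.084 ± 0.18 did not pass (limma, adjusted p = 0.128). The dyes read 0.15 in Cy5 (limma, adjusted p = 0.0192) and -0.32 in Cy3 (limma, adjusted p = 0.000739). The TIF1 trend in time passed, with a rise of 0.22 per 10 min (limma, SE 0.069, adjusted p = 0.0264), as 22.8% of all probes did. TIF2 had a rise of the same size, 0.22 per 10 min (limma, adjusted p = 0.0130), with ratios of -0.12 at 2 min and 0.35 at 20 min. The call on the TIF1 trend was lost without 2, 6, 15 or 20 min, with slopes between 0.20 and 0.22 and adjusted p of up to 0.201, and in Cy3 alone (adjusted p = 0.0827).

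With both strains in 3-AT, EFT1 was higher in the gcn2 deletion than in wild type at every time. The ratios were 0.061, 0.16, 0.23, 0.16, 0.11 and 0.19, with a mean of 0.15 ± 0.06 (SD, n = 6 time points), or 111% of wild type. EFT1 passed as higher (limma, SE 0.032, adjusted p = 0.00490), as did 25.5% of all probes. With the gcn2 RNA in Cy5 all 6 arrays were above 0, with a mean of 0.29. With it in Cy3, 3 were above and 3 below, and the mean of 0.017 did not pass (limma, adjusted p = 0.784).

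TIF1 gave 0.0091, 0.036, 0.11, 0.0070, -0.12 and -0.023 in the same course. Its mean of 0.0033 ± 0.08 (SD, n = 6 time points) did not pass (limma, adjusted p = 0.938). Here too the dyes disagreed, with means of 0.23 for gcn2 RNA in Cy5 (limma, adjusted p = 0.000357) and -0.22 in Cy3 (limma, adjusted p = 0.0117).

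The 3-AT courses share RNA extracts, so they are set side by side and not correlated. The response to 3-AT, gcn2 deletion minus wild type, was 0.068 for EFT1 (limma, SE 0.063, adjusted p = 0.508) and -0.10 for TIF1 (limma, SE 0.051, adjusted p = 0.194). No EFT1 trend passed in the 3-AT courses, with slopes of 0.023, 0.095 and 0.021 per 10 min (limma, adjusted p of 0.355 or more). Neither difference of responses passed, where 15.4% of all probes did. Beside these small values, the Gcn4 targets HIS4 and HIS5 averaged 0.91 and 1.14 in wild type in 3-AT, and -1.64 and -1.44 in the gcn2 deletion over wild type.

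EFT1 and TIF1 were also compared with each other, with an exact sign-flip permutation test over the 6 time points (two-sided). The smallest p it allows is 0.0312. In wild type in 3-AT EFT1 was below TIF1 at 6 of 6 times, by -0.12 ± 0.07 on the log2 scale (SD, n = 6; exact p = 0.0312, adjusted over 4 courses 0.0625). This order held at every time only with the 3-AT RNA in Cy5. With it in Cy3, EFT1 averaged -0.15 and TIF1 -0.18, and EFT1 was above TIF1 at 2, 4 and 10 min. In the gcn2 deletion over wild type it was above TIF1 at 6 of 6 times, by 0.15 ± 0.07 (SD, n = 6; exact p = 0.0312, adjusted 0.0625). Both differences miss the threshold after adjustment. In the gcn2 deletion in 3-AT the difference was 0.049 (exact p = 0.375) and in prp8-1 it was 0.037 (exact p = 0.219). The copies TIF1 and TIF2 differed by -0.17 ± 0.05 in the gcn2 deletion in 3-AT, with TIF1 lower at 6 of 6 times (exact p = 0.0312, adjusted 0.125). Most of this difference came from the arrays with the 3-AT RNA in Cy3, where TIF1 averaged -0.32 and TIF2 0.00013. In Cy5 the means were 0.15 and 0.18, and TIF1 was the higher copy at 4 and 10 min. In the other 3 courses TIF1 minus TIF2 lay between -0.026 and -0.0025 (exact p of 0.594 or more). The comparison of the copies was added after the values were seen.

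**Figure D3:**
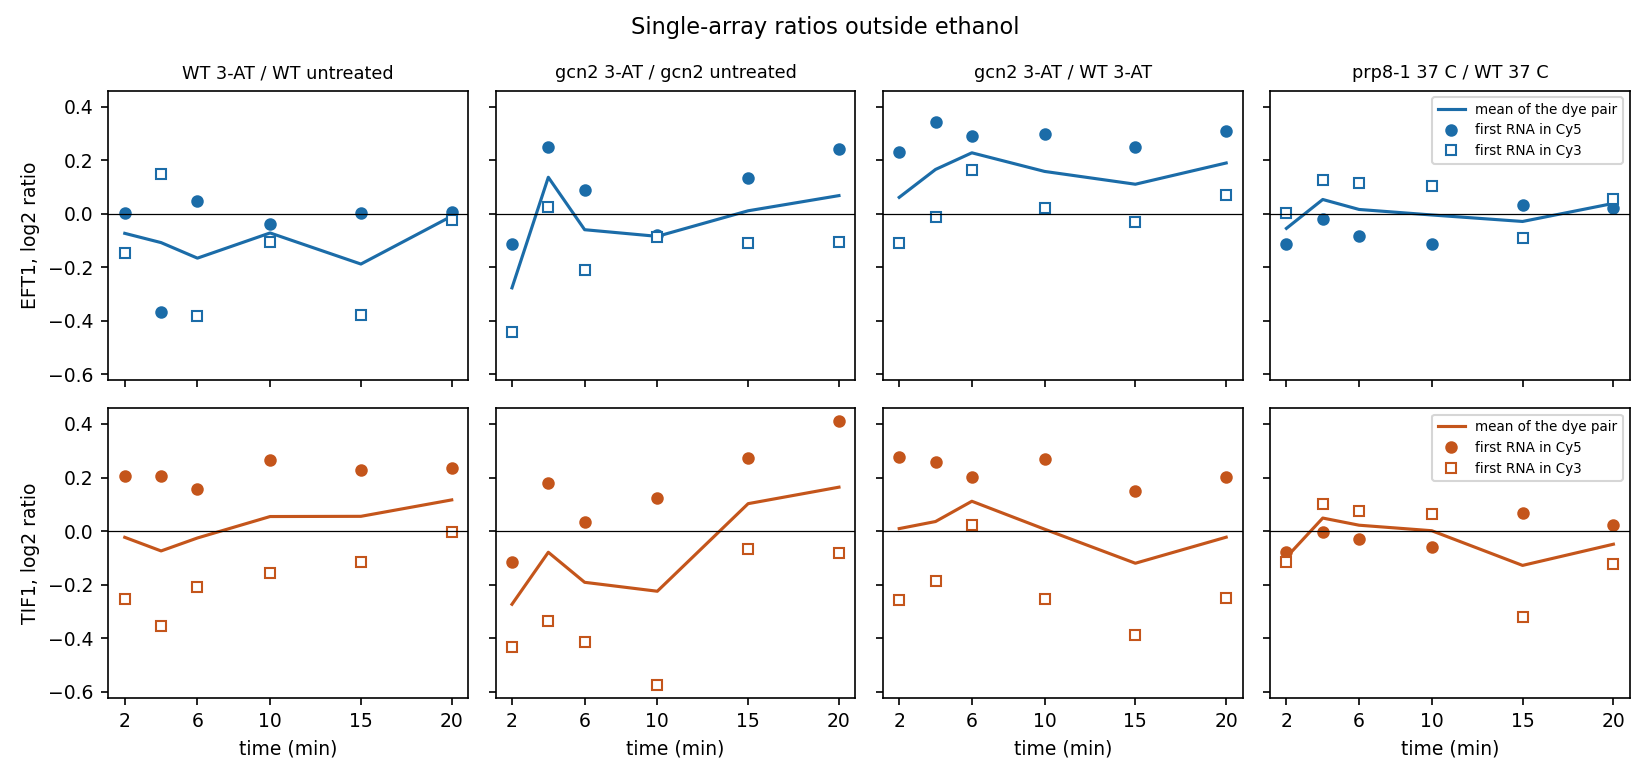
Log2 ratio on each array for EFT1 (upper row) and TIF1 (lower row) against time in the 3 courses with 3-AT and in prp8-1 at 37 C, with the first-named RNA in Cy5 (filled circles) or Cy3 (open squares) and lines through the pair means. The TIF1 dyes lie on opposite sides of 0 at most times in 3-AT, and the pair means stay between -0.28 and 0.23.

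In prp8-1 at 37 C, which moved 78.6% of all probes, both genes stayed near 0. EFT1 gave -0.055, 0.053, 0.015, -0.0051, -0.029 and 0.038, with a mean of 0.0028 ± 0.04 (SD, n = 6 time points; limma, adjusted p = 0.934). TIF1 gave -0.098, 0.049, 0.022, 0.0012, -0.13 and -0.049, with a mean of -0.034 ± 0.07 (SD, n = 6 time points; limma, adjusted p = 0.400). Neither gene had a trend that passed, where 28.1% of all probes did. Among the other translation factors, 5 of 10 were higher and 3 lower, with DED1 at 1.02 and DBP1 at -1.21, where 39.6% of all probes were higher and 39.1% lower. TIF2 averaged -0.0082 and did not pass (limma, adjusted p = 0.882).

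Many of these near-zero values were not particular to a gene. A spot was counted as sharing its value where at least 5 other probes in the same block of the same array had a spot with a ratio within 0.0005 of it. In prp8-1 this held for 25 of 72 EFT1 spots (34.7%), 32 of 72 TIF1 spots (44.4%) and 43 of 72 TIF2 spots (59.7%), against 3.24% of all spots. In the deletion strains it held for 22 of 72 (30.6%), 34 of 72 (47.2%) and 59 of 72 spots (81.9%), against 4.17% of all spots. In ethanol, on the same kind of slide, it held for 0 of 72 spots of each gene, against 1.10% of all spots. Without such spots EFT1 in prp8-1 averaged 0.033 (limma, adjusted p = 0.322) and TIF1 averaged -0.0062 (limma, adjusted p = 0.880). In the 3-AT courses it held for at most 2 of 48 spots of a gene in a course. Spot brightness was not used here, so whether any of these spots were saturated, which would hold a ratio near 0, was not tested.

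In the deletion strains, with 1 dye pair each and so no test, neither gene reached the fold used, an absolute log2 ratio of 0.5. EFT1 was at -0.053 in rai1, -0.012 in rrp6, -0.021 in rtt103, 0.10 in ski2, -0.019 in upf1 and -0.075 in xrn1. TIF1 was at -0.024 in rai1, 0.064 in rrp6, 0.0079 in rtt103, 0.017 in ski2, 0.021 in upf1 and 0.080 in xrn1. The single arrays lay between -0.11 and 0.12 for EFT1 and between -0.038 and 0.12 for TIF1. TIF2 lay between -0.00040 and 0.092. The share of all probes past that fold was 12.6% in rai1, 13.5% in rrp6, 4.49% in rtt103, 5.14% in ski2, 17.6% in upf1 and 39.4% in xrn1. In the xrn1 deletion, which lacks the main cytoplasmic exonuclease of mRNA decay, the 12 EFT1 spots ran from -0.47 to 0.28, with an SD of 0.23. In the ski2 deletion they ran from -0.20 to 0.70, the widest range of either gene among these strains, with an SD of 0.21. Without the spots that share a value, EFT1 in xrn1 stood at -0.21.

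**Figure D4:**
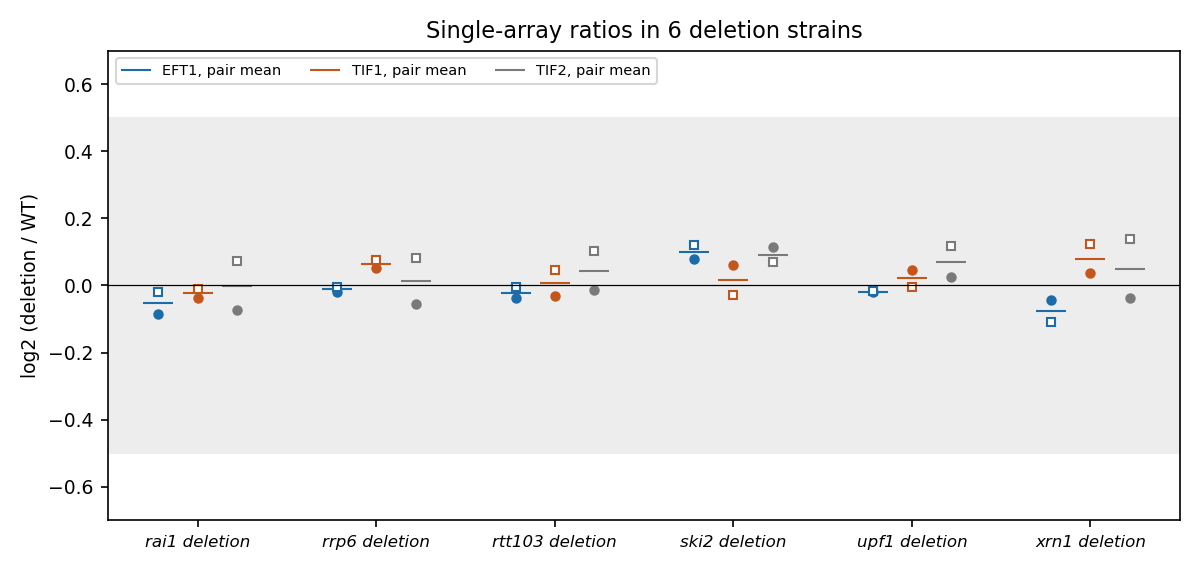
Log2 ratio of each deletion strain over wild type for EFT1, TIF1 and TIF2. Dashes are pair means, filled circles and open squares are the arrays with the mutant RNA in Cy5 and in Cy3, and the grey band spans -0.5 to 0.5. All points lie well inside the band.

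Over the 11 comparisons ethanol stood apart, at the low end for both genes with the direction taken here and at the high end if it were turned. EFT1 was lowest in ethanol (-3.37), followed by wild type in 3-AT (-0.10), and highest in the gcn2 deletion over wild type in 3-AT (0.15). TIF1 was lowest in ethanol (-2.28), followed by the gcn2 deletion in 3-AT (-0.084), and highest in the xrn1 deletion (0.080). For both genes the highest time point in ethanol lay below every value of every other comparison. Both were chosen for their fall in ethanol, so this gap follows from the choice. Among the other 10 comparisons the widest step between neighbours for EFT1 ran from prp8-1 (0.0028) to the ski2 deletion (0.10), less than the SD over the 12 spots in ski2 (0.21). For TIF1 it was that from the gcn2 deletion in 3-AT (-0.084) to prp8-1 (-0.034), less than the SD over time points of the 3-AT course (0.18). The slides of the 3-AT courses were deposited in a table of their own, so the order across tables is a description.

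Other translation factor genes were also followed outside ethanol. In wild type in 3-AT, 1 of the 10 other translation factors rose (DED1, 0.18) and 2 fell (DBP1, -0.50, and STM1, -0.22). Of all probes, 31.6% rose and 31.5% fell. SUP45 at 0.092, TIF5 at 0.054 and EAP1 at -0.092 did not pass. In the gcn2 deletion in 3-AT 4 rose and 2 fell, where 28.2% of all probes rose and 28.1% fell, with SUP45 (0.30), DED1 (0.28) and CAF20 (0.17) highest, and DBP1 (-0.41) and STM1 (-0.20) lowest of those that passed. GCN3, for a subunit of eIF2B, did not pass at -0.15. In the gcn2 deletion over wild type TIF5 (0.43), DED1 (0.16) and STM1 (0.10) were higher, and GCN3 (-0.24), SUP45 (-0.15) and PAB1 (-0.11) lower. Of all probes, 25.5% were higher and 24.8% lower in that course. DBP1 at 0.22 did not pass there. In prp8-1, CAF20 (0.83) and TIF5 (0.59) followed DED1, and EAP1 (-0.26) and STM1 (-0.13) followed DBP1.

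In 3-AT more genes of the DEAD-box list rose than fell. In wild type in 3-AT 16 of 23 genes rose while 4 fell, and the median was 0.24, against -0.011 over all probes, of which 31.6% rose and 31.5% fell. The highest were the ribosome assembly helicases DBP8 (0.87), DBP6 (0.74) and MAK5 (0.70), and the lowest DBP1, the mRNA export helicase DBP5 (-0.46) and the decapping activator DHH1 (-0.33). In the gcn2 deletion in 3-AT 16 rose and 3 fell, where 28.2% of all probes rose and 28.1% fell, with DBP8 at 1.02, FAL1 at 0.80 and DBP7 at 0.75 highest. DBP1, DHH1 at -0.17 and SUB2 at -0.16 were lowest. Between strains in 3-AT 13 were higher in gcn2 and 2 lower, where 25.5% of all probes were higher and 24.8% lower. The values ran from SPB4 at -0.21, SUB2 at -0.14 and DBP5 at -0.058, which did not pass, to DBP10 and MAK5 at 0.33 and DBP8 at 0.34. In prp8-1 16 were higher and 3 lower, where 39.6% of all probes were higher and 39.1% lower. The values ran from DBP1, DHH1 at -0.68 and DBP5 at -0.13 to ROK1 at 1.04, DBP3 at 1.12 and RRP3 at 1.18. The eIF4A-like FAL1 reached 1.76 at 20 min of 3-AT in the gcn2 deletion and 0.84 in wild type. At that time TIF1 was at 0.16 in the gcn2 deletion and 0.12 in wild type. SNU114 averaged 0.19 in wild type in 3-AT, 0.14 in the gcn2 deletion in 3-AT, 0.25 between the strains and 0.18 in prp8-1, and passed as higher each time.

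**Figure D5:**
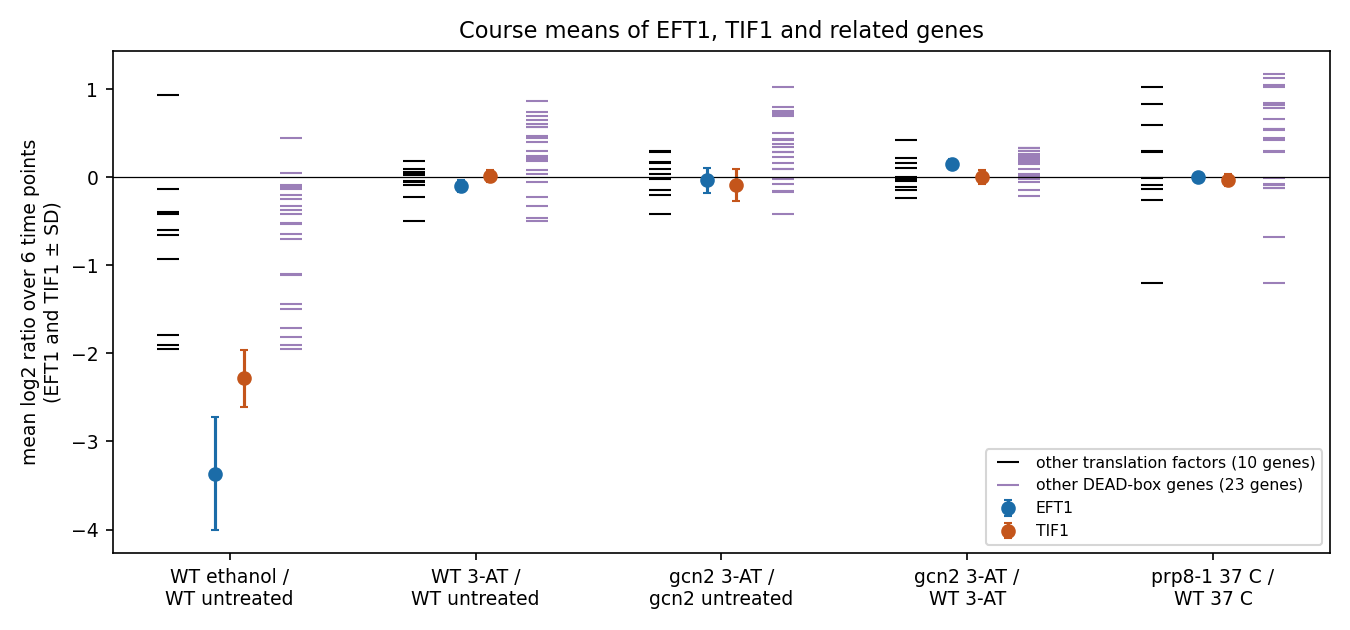
Mean log2 ratio over 6 time points in each course for EFT1 and TIF1 (points with SD), for 10 other translation factor genes and for 23 other DEAD-box helicase genes (dashes). EFT1 and TIF1, chosen for their fall in ethanol, lie below both lists there. In the other 4 courses they lie near 0 and the dashes spread to both sides.

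The likeness of other genes to EFT1 and TIF1 was measured as Pearson's r over the 36 pair means, which share wild-type RNA, slides and the ethanol course. For EFT1 the highest r belonged to TIF2 (0.986), the ribosomal protein genes RPL4A (0.973) and RPL4B (0.972), TIF1 (0.971) and SSB1 (0.968). For TIF1 they were TIF2 (0.986), a probe of ACT1 (0.971), EFT1 (0.971), SUB2 (0.962) and PUB1 (0.961), which encodes an RNA-binding protein. These figures rest on the 6 ethanol values. Over the 30 pairs without ethanol, the r between EFT1 and TIF1 was 0.380, which placed TIF1 at rank 73 for EFT1. The highest for EFT1 were then the ribosomal protein genes RPP2A (0.765), RPS6A (0.729) and RPP1B (0.709). The transcription elongation factor gene SPT5 (0.660) and the polymerase gene POL1 (0.638) came next. For TIF1 they were RPL4B (0.651), SEN1 (0.626), RPL3 (0.619), MCM7 (0.617) and RPL16B (0.600), and TIF2 had rank 7 at 0.590. These 30 pairs include those of prp8-1 and the deletion strains, where many EFT1 and TIF1 spots shared their value with other probes. They also include the 3-AT pairs, where the TIF1 dyes disagreed. Whether either moved these r values was not tested. The ranks depended on the measure. By Spearman's rho over the same 30 pairs TIF1 stood at 0.296 and rank 199 for EFT1, and TIF2 at 0.514 and rank 41 for TIF1. RPP2A stayed highest for EFT1 at 0.730, and ARO80 was highest for TIF1 at 0.715. Over all 36 pairs the rho between EFT1 and TIF1 was 0.590, at rank 73 for EFT1. RPS6A, RPP1B, RPL16B and ACT1 have 3 probes, of which the one with the highest r is given.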

How the data were processed

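RNA was labelled by aminoallyl-dUTP incorporation into cDNA, per the labels' protocols. The authors deposited log ratios per spot, taken here as log2. No source used here gives the log base, background correction or normalization. Tables of 6144 spots (3-AT courses) and 9216 spots (all other groups) were analysed separately. Of 1536 probes, 1457 carried the platform annotation's gene symbol, and 79 were unnamed. Gene names were updated with RefSeq. Spots were averaged per probe, then over each dye pair. Dye-swapped arrays ran in the same direction, so no sign was changed.

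For each course, limma 3.58.1 (R 4.3.3) fitted an intercept and a slope on centred time to 6 pair means of all probes, with Benjamini-Hochberg adjustment at 0.05. The fits were tested on simulated data. The members, lists and tests were chosen with earlier results of these data known. Named genes were the members, their relatives, the 3 highest and 3 lowest of the translation factor and DEAD-box lists per course, the 5 genes of highest r, the 3 neighbours in the ethanol order and the targeted genes. HIS4, HIS5, HSP104, SIS1, SSA3 and SSA4, from further lists, and ARO80 were named after their values were seen. In wild type in 3-AT, 3 of 3 Gcn4-controlled genes rose, and 7 of 8 stress genes and both abundant metabolic genes fell, where 31.6% of all probes rose and 31.5% fell. PRP8 stood at 0.020 in prp8-1, which keeps the gene. The targeted genes fell in ethanol in 7 of 7 cases, where 38.7% of all probes were lower. Few arrays per group limit the precision. Deviations from the course means at the same time in both 3-AT courses correlated between 0.076 and 0.56, with a median of 0.52. A pairing by time can therefore not be set aside. The main fit of the response difference used no replicate block, and the fit with the time point as a block is given below.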

Additional observations from a re-analysis of the deposited data

How the results depend on the processing

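Of 272 values recomputed under alternatives other than leaving out a time point, 240 kept their direction and their side of the threshold, or moved little. A further 15 reversed, 5 lost a call, 4 gained one and 8 counts moved. Where no cause is given, the cause was not tested. The ethanol means of EFT1 and TIF1 were among those that held in direction under every alternative run. Both genes were chosen for a strong fall in ethanol, so this adds no support. With the first RNA in Cy5 alone, TIF1 averaged 0.22 in wild type in 3-AT, 0.15 in gcn2 and 0.23 between the strains, and passed. EFT1 averaged -0.058 in wild type in 3-AT, 0.086 in gcn2 and -0.046 in prp8-1. The TIF1 slope in prp8-1 was 0.055, and EFT1 minus TIF1 was -0.065 in gcn2 and -0.032 in prp8-1. With it in Cy3 alone, TIF1 averaged -0.18, -0.32 and -0.22 in the 3-AT courses, and EFT1 averaged -0.15, -0.16 and 0.017. The EFT1 slope was -0.032 in wild type in 3-AT and -0.041 in prp8-1, the TIF1 slope in gcn2 was 0.21, EFT1 minus TIF1 in wild type was 0.033 and the EFT1 response difference was -0.0076. Single-dye values hold any dye effect, which cancels in the pairs only where it is equal and opposite on both arrays. Medians over spots turned the EFT1 mean and slope in prp8-1 to -0.0036 and -0.0027, and centring each array turned the mean to -0.0073. Without the time term EFT1 in wild type in 3-AT stayed at -0.10 and lost its call. Counts of probes called moved as follows. Ethanol slopes numbered 1 with spot medians, and 0 by limma with Cy5 alone and with Cy3 alone (67 and 117 at an unadjusted p under 0.05). Without the time term 484 probes were called in gcn2, 507 between strains and 0 for the difference of responses (221 unadjusted). With Cy3 alone 133 slopes between strains and 123 differences of responses were called.

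Leaving out each time point in turn gave EFT1 means of -3.59 to -3.24 in ethanol, -0.12 to -0.086 in wild type in 3-AT, -0.069 to 0.014 in gcn2, 0.14 to 0.17 between strains and -0.0072 to 0.014 in prp8-1. TIF1 means were -2.40 to -2.22, -0.0029 to 0.035, -0.13 to -0.046, -0.018 to 0.028 and -0.051 to -0.015. EFT1 slopes were -0.058 to 0.055, 0.0048 to 0.17, -0.018 to 0.039 and -0.013 to 0.031 in the 4 courses without ethanol, and TIF1 slopes 0.080 to 0.11, 0.20 to 0.26, -0.11 to -0.036 and -0.082 to -0.010. EFT1 minus TIF1 was -0.14 to -0.095, 0.016 to 0.078, 0.13 to 0.17 and 0.024 to 0.045, where the smallest exact p with 5 times is 0.0625. The response differences were 0.033 to 0.12 for EFT1 and -0.13 to -0.065 for TIF1. Probes called for the mean numbered 1172 to 1250 in ethanol, 833 to 990, 675 to 955, 641 to 794 and 1140 to 1208 in the other courses, and 71 to 368 for the difference of responses. Slopes called numbered 0 to 1, 324 to 475, 382 to 695, 94 to 437 and 290 to 398. The difference of responses, with 237 probes called over all times, had 368 without 2 min, 140 without 6 min, 107 without 10 min, 71 without 15 min and 97 without 20 min. Slopes in gcn2 numbered 382 without 20 min, and those between strains 208 without 4 min, 258 without 15 min and 94 without 20 min. With the time point as a replicate block, the response difference of EFT1 had a limma adjusted p of 0.527 and that of TIF1 0.271, with 191 probes called, and no call on EFT1 or TIF1 changed. Leaving out spots with shared values and testing named probes alone were chosen after seeing the data. Signal over background was not used here, and few arrays per group limit precision.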
